A study of Mus musculus with 3 samples.

Results

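The genes described are 39 lysosome and cathepsin genes, found by their symbols among the 34099 genes of each count matrix, and all 39 were found. They comprise 7 cysteine cathepsins, 4 other proteases, 11 hydrolases of sugars, lipids and phosphates, 2 cofactors, 2 proteins of cholesterol export, 6 membrane proteins, 4 proton pump subunits and 3 transcription factors. Their levels were followed in monocytes, macrophages, Kupffer cells, dendritic cells and endothelium of mouse liver, with the classes set by marker genes.

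Single-cell RNA sequencing was done on the livers of 3 mice, each of which had received paracetamol (acetaminophen, whose overdose kills hepatocytes around the central veins) at 500 mg/kg. At 6 h after the overdose the first mouse was infused with PBS (buffer alone), the second with native MSC (unmodified mesenchymal stromal cells) and the third with engineered MSC (mesenchymal stromal cells carrying bispecific polyvalent peptides), and the livers were taken at 4 days. Strain, sex and age are not given in the labels. With 1 mouse and 1 library per group, treatment, mouse and library preparation cannot be told apart, so no test between groups was possible and every interval given (95%, exact) covers counting error alone.

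Lysosomes are acidic compartments in which material taken up by phagocytosis, endocytosis and autophagy is digested. Cathepsins are their proteases: most are cysteine proteases, while Ctsd is an aspartic protease and Ctsa a serine carboxypeptidase. The vacuolar proton pump acidifies the compartment, heavily glycosylated membrane proteins such as Lamp1 and Lamp2 line it, and the related transcription factors Tfeb, Tfe3 and Mitf bind CLEAR elements, sites built around the letters CACGTG, in many lysosome genes. In the liver, Kupffer cells and recruited macrophages clear dead cells and debris, and sinusoidal endothelium takes up large amounts of soluble waste.

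Promoter stretches of 4 genes are shown because they hold the 8-letter core of a CLEAR element, TCACGTGA, and because the 39 genes include the factors known for binding it. Capitals mark the core. Each stretch is 60 bases long, ends at or before the annotated start of the gene and is taken from RefSeq promoters on build GRCm38.p6, while the counts were made on GRCm39.
Atp6v1a: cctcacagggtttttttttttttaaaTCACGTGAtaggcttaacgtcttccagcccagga
Ctsa: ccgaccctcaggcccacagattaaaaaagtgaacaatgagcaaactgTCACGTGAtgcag
Ctsd: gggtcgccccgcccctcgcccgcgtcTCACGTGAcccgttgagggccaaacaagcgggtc
Mcoln1: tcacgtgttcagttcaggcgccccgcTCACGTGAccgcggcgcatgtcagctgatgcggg
The stretches lie at chr16:44139358-44139417 on the minus strand, chr2:164833713-164833772 on the plus strand, chr7:142387893-142387952 on the minus strand and chr8:3500447-3500506 on the plus strand, and the core began 132, 13, 99 and 46 bases before the start. A promoter entry was matched for 34 of the 39 genes, each running from 250 bases before to 50 after the start, and both strands were searched. TCACGTGA was held by 4 of the 34 (11.8%) and by 1.12% of all 27025 genes with a promoter entry (0.974% of all 32851 promoters of that length). CACGTG, which lies inside it, was held by 9 (26.5%), namely the 4 above with Ctsl, Gaa, Glb1, Lamp1 and Lgmn, and by 8.09% of all genes (7.15% of promoters). The full element, which adds G before and C after this core, was in none of the matched promoters of these genes, and 0.370% of all genes held it (0.326% of promoters). Promoters were also matched for 85 of the further lysosome and autophagy genes followed below. Of these, 11 (12.9%) held TCACGTGA, 25 (29.4%) held CACGTG and 3 (3.53%) held the full element. The shares with TCACGTGA and CACGTG are thus not particular to the 39 genes. A match describes letters and not binding.

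After filters on cells, 9537, 9179 and 9129 cells remained in PBS, native MSC and engineered MSC, with median depths of 5783, 5673 and 3667 UMIs (unique molecular identifiers, 1 per captured transcript). Between 25 and 35 kept barcodes were shared by any pair of libraries. Counts of cells, in that order of libraries, were 1368, 1894 and 197 for monocyte-like, 1890, 267 and 257 for macrophage-like, 623, 38 and 279 for Kupffer-cell-like, 587, 180 and 278 for dendritic-cell-like and 1068, 132 and 1800 for endothelium-like cells. Different clusters filled a class in different livers. Of the macrophage-like cells, the cluster led by Atp6v0d2, Lpl and Gpnmb held 1853 in PBS but 16 and 11 in native and engineered MSC, where the cluster led by Cbr2 and Cd163 held 251 and 246 against 37 in PBS. Monocyte-like cells came mostly from a cluster led by Ace and Adgre4 in PBS, which also held muscle transcripts such as Acta1, from a cluster led by Vcan and Chil3 in native MSC, and in engineered MSC from that cluster (85 cells) and a further one found in that library alone (93 cells). Endothelium-like cells came from a cluster led by Inhbb and Esm1 in PBS (1029 cells) and from a cluster led by Wnt2 and Ehd3 in engineered MSC (1576 cells). A cluster led by Ppbp, Areg, Thbs1 and Spp1, of 1263, 1371 and 185 cells, scored for macrophage and monocyte markers alike and is called the intermediate cluster. Clusters with both endothelial and Kupffer markers (56, 0 and 117 cells), with shallow endothelial cells (288, 11 and 25) and with cycling cells (165, 346 and 99) were given no class.

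Macrophage-like cells spent the largest share of their transcripts on these genes. Levels are given as CPM, the counts of a gene per 1000000 UMIs of its class in that library. Each UMI counts 1 transcript whatever its length, but whether different genes were captured equally well was not tested. The summed level of the 39 genes was 43772 CPM in PBS, 41730 in native MSC and 42675 in engineered MSC for macrophage-like cells, and 38218, 37525 and 33500 CPM, in the same order, for Kupffer-cell-like cells. It was 24784, 29366 and 35013 CPM in the intermediate cluster, 21345, 18421 and 16398 in monocyte-like, 14419, 14085 and 11559 in dendritic-cell-like and 9864, 8198 and 8139 in endothelium-like cells. In T-cell-like cells, shown as a lymphoid class for comparison, it was 4517, 2977 and 2947 CPM. The order of the 5 classes was the same in the 3 livers. The median cell told the same order, with 4.04, 4.00 and 3.91% of its UMIs from the 39 genes in macrophage-like cells, 3.47, 3.23 and 2.93% in Kupffer-cell-like, 2.08, 1.72 and 1.53% in monocyte-like, 1.39, 1.36 and 1.12% in dendritic-cell-like, 0.991, 0.781 and 0.809% in endothelium-like and 0.447, 0.288 and 0.279% in T-cell-like cells.

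**Figure D1:**
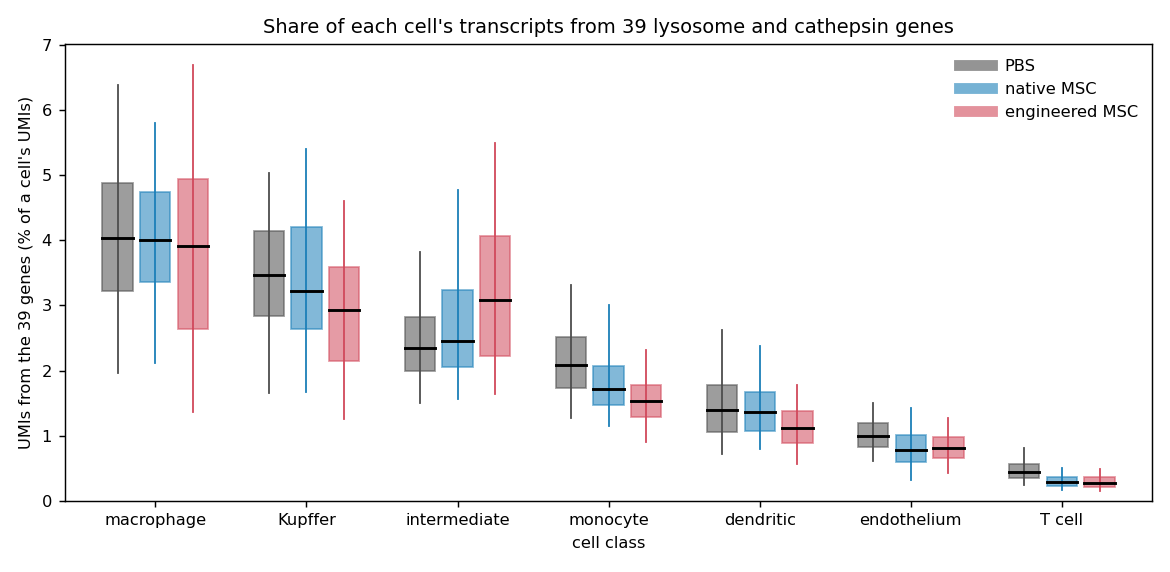
Share of each cell's UMIs from the 39 genes (y axis, %) by cell class (x axis) and library (colour); black lines are medians, boxes the middle 50% of cells and thin lines the 5th to 95th percentiles of cells. Medians ran from 4.04% in macrophage-like cells of PBS to 0.279% in T-cell-like cells of engineered MSC.

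A few genes carried most of the sum. In macrophage-like cells the 5 highest genes, Psap, Ctsb, Ctsd, Ctss and Lgmn in PBS, gave 62.7% of it, and the 5 highest in native and engineered MSC gave 58.2% and 59.5%. Of the 39 genes, 22 had their highest class unchanged across the 3 livers. That class was macrophage-like for 12 (Ctsb, Ctss, Ctsz, Ctsd, Hexa, Psap, Npc1, Npc2, Lamp1, Cd68, Atp6v0c and Atp6v1a), Kupffer-cell-like for 9 (Ctsc, Lgmn, Tpp1, Neu1, Acp2, Grn, Scarb2, Atp6v1b2 and Mitf) and endothelium-like for 1, Lamp2. Endothelium-like cells were lowest in all 3 livers for 21 genes and dendritic-cell-like cells for 10.

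**Figure D2:**
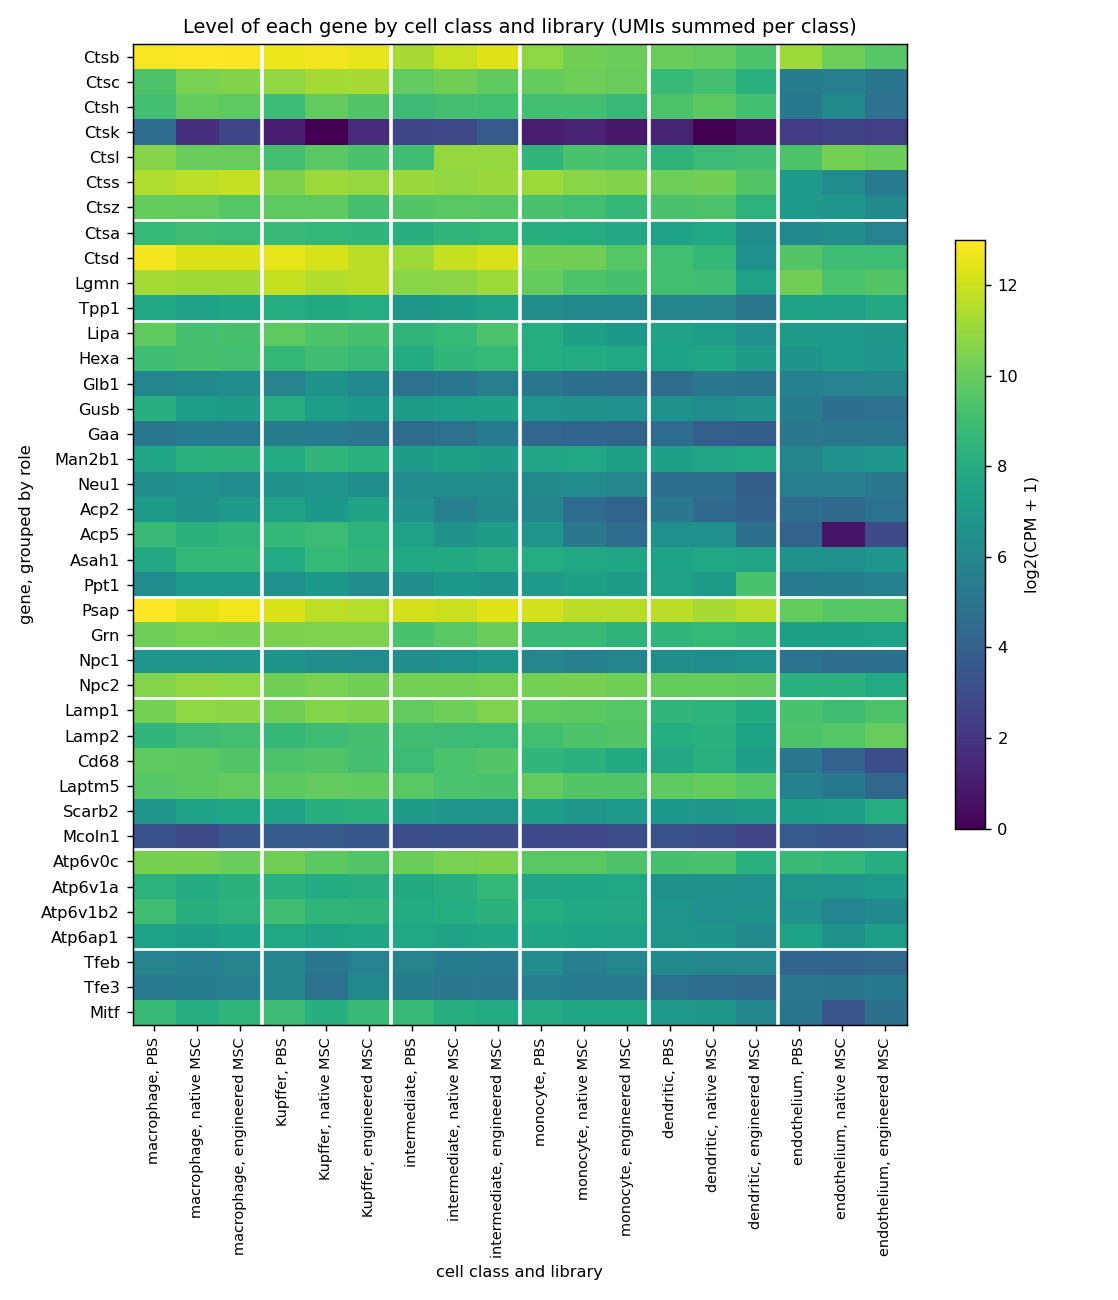
Level of each of the 39 genes (rows, grouped by role) as log2(CPM + 1) in 6 groups of cells and 3 libraries (columns). Psap, Ctsb and Ctsd are brightest in the macrophage-like and Kupffer-cell-like columns, and Ctsk and Mcoln1 are dim in most columns.

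Among the cysteine cathepsins, Ctsb, a general protein-digesting enzyme, ranged over the 3 livers from 7158 to 8054 CPM in macrophage-like cells, 5900.3 to 6873 in Kupffer-cell-like cells, 1023 to 1768 in monocyte-like cells, 794 to 2141 in endothelium-like cells and 655 to 1033 in dendritic-cell-like cells. Macrophage-like and Kupffer-cell-like cells stood well apart from the other classes, whose neighbouring ranges overlapped. Ctss, which trims the invariant chain of MHC class II, ranged from 2797 to 3659.8 CPM in macrophage-like cells, 1393 to 2152 in Kupffer-cell-like cells, 1458 to 2169.5 in monocyte-like cells, 698 to 1211 in dendritic-cell-like cells and 41.2 to 128 in endothelium-like cells. Macrophage-like cells were again highest, with Kupffer-cell-like and monocyte-like ranges overlapping. The endothelial level lay below that of T-cell-like cells (169, 114 and 90.5 CPM) in each liver. Ctsl, the invariant chain protease of the thymic epithelium and a general endopeptidase elsewhere, ranged from 652 to 1249 CPM in endothelium-like cells, 1005 to 1613 in macrophage-like cells, 561 to 802 in Kupffer-cell-like cells, 377 to 615 in monocyte-like cells and 346 to 518 in dendritic-cell-like cells. The endothelium-like range overlapped those of macrophage-like and Kupffer-cell-like cells. Ranges also overlapped between Kupffer-cell-like and monocyte-like cells, and between monocyte-like and dendritic-cell-like cells. Macrophage-like cells were highest for this protease in PBS, at 1613 CPM against 652 in endothelium-like cells. In both MSC livers endothelium-like cells were highest. Ctsk, the collagen-digesting enzyme of osteoclasts, was low throughout, from 2.40 to 22.7 CPM in macrophage-like cells, 4.03 to 4.95 in endothelium-like cells, 0 to 2.08 in Kupffer-cell-like cells, 0.775 to 1.40 in monocyte-like cells and 0 to 1.51 in dendritic-cell-like cells. It had 0 UMIs in Kupffer-cell-like and dendritic-cell-like cells of native MSC, which allows up to 12.0 and 2.04 CPM (3 counts of the total).

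Of the other proteases, Ctsd ranged from 5052 to 6880.3 CPM in macrophage-like cells, 3238 to 5852 in Kupffer-cell-like cells, 766 to 1199 in monocyte-like cells, 490.4 to 731 in endothelium-like cells and 90.8 to 541 in dendritic-cell-like cells. Neighbouring ranges overlapped between macrophage-like and Kupffer-cell-like cells, and between endothelium-like and dendritic-cell-like cells. Its level in T-cell-like cells was 457 CPM in PBS, 328 in native MSC and 270.3 in engineered MSC, so that the dendritic-cell-like level in engineered MSC was below it. Lgmn, the asparagine-specific legumain that activates other cathepsins, ranged from 2909.6 to 3694 CPM in Kupffer-cell-like cells, 2262 to 2450.2 in macrophage-like cells, 628 to 1165 in endothelium-like cells, 601 to 978 in monocyte-like cells and 173 to 533 in dendritic-cell-like cells. Kupffer-cell-like cells were highest without overlap, and the endothelium-like and monocyte-like ranges overlapped.

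Lipa, the acid lipase that frees cholesterol from engulfed lipoproteins and cells, ranged from 585 to 863 CPM in Kupffer-cell-like cells, 569 to 912 in macrophage-like cells, 119 to 266 in monocyte-like cells, 95.7 to 178 in dendritic-cell-like cells and 116 to 143 in endothelium-like cells. Kupffer-cell-like and macrophage-like cells shared the top range, and the other 3 classes lay lower. Acp5, the tartrate-resistant acid phosphatase of osteoclasts and macrophages, ranged from 331 to 461 CPM in Kupffer-cell-like cells, 324 to 433 in macrophage-like cells, 27.0 to 91.8 in dendritic-cell-like cells, 22.5 to 109 in monocyte-like cells and 0.708 to 16.8 in endothelium-like cells. T-cell-like cells held 174, 131 and 110.4 CPM of Acp5 in PBS, native MSC and engineered MSC, above the monocyte-like, dendritic-cell-like and endothelium-like levels there. Psap, the precursor of the saposins that help hydrolases reach lipids, ranged from 5610.2 to 8151 CPM in macrophage-like cells, 2994 to 4894 in Kupffer-cell-like cells, 3066 to 4347 in monocyte-like cells, 2438 to 3264 in dendritic-cell-like cells and 761 to 976 in endothelium-like cells. Neighbouring ranges overlapped between Kupffer-cell-like and monocyte-like cells, and between monocyte-like and dendritic-cell-like cells. Grn, the progranulin precursor, ranged from 1374 to 1439 CPM in Kupffer-cell-like cells, 1105 to 1311 in macrophage-like cells, 344 to 442 in monocyte-like cells, 360 to 419.8 in dendritic-cell-like cells and 164 to 169.9 in endothelium-like cells. The Kupffer-cell-like range lay above the macrophage-like one, and monocyte-like and dendritic-cell-like ranges overlapped. Npc2, which hands cholesterol to Npc1 for export, ranged from 1528 to 1888 CPM in macrophage-like cells, 1147 to 1268 in monocyte-like cells, 1149 to 1331 in Kupffer-cell-like cells, 911 to 978 in dendritic-cell-like cells and 244 to 314 in endothelium-like cells. Npc2 was thus spread more evenly than Lipa over macrophage-like, monocyte-like, Kupffer-cell-like and dendritic-cell-like cells.

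Among the membrane proteins, Lamp1 ranged from 1238 to 1772 CPM in macrophage-like cells, 1162 to 1551 in Kupffer-cell-like cells, 769 to 917 in monocyte-like cells, 522 to 651 in endothelium-like cells and 239.5 to 372 in dendritic-cell-like cells. The macrophage-like and Kupffer-cell-like ranges overlapped, and dendritic-cell-like cells were lowest in Lamp1 without overlap. Cd68, a glycoprotein used as a macrophage marker, ranged from 698 to 858 CPM in macrophage-like cells, 548 to 717 in Kupffer-cell-like cells, 236 to 372 in monocyte-like cells, 150.1 to 305 in dendritic-cell-like cells and 7.27 to 36.3 in endothelium-like cells. Endothelial Cd68 was close to its level in T-cell-like cells (35.5, 22.6 and 7.64 CPM in PBS, native MSC and engineered MSC). The transcription factors were weakly counted. Tfeb ranged from 49.5 to 81.8 CPM in monocyte-like cells, 64.0 to 72.2 in dendritic-cell-like cells, 48.1 to 55.0 in macrophage-like cells, 36.1 to 58.0 in Kupffer-cell-like cells and 17.0 to 20.1 in endothelium-like cells. The endothelial range lay under all others. Tfe3 ranged from 28.1 to 68.5 CPM in Kupffer-cell-like cells, 40.7 to 46.8 in macrophage-like cells, 40.7 to 46.1 in monocyte-like cells, 31.8 to 37.4 in endothelium-like cells and 20.7 to 27.7 in dendritic-cell-like cells. Mitf, the factor of osteoclasts, mast cells and pigment cells, was the best counted of them, from 285 to 481 CPM in Kupffer-cell-like cells, 262 to 438 in macrophage-like cells, 198 to 244 in monocyte-like cells, 61.1 to 129 in dendritic-cell-like cells and 9.91 to 31.9 in endothelium-like cells. Neighbouring ranges overlapped between Kupffer-cell-like and macrophage-like cells.

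Comparisons between livers rest on ratios of CPM for genes with at least 50 UMIs in the pair. A gene more than 1.5-fold apart is counted, with no test behind it. PBS is the shared control of the comparisons of both MSC livers, so agreement between these is not a result. Each class was compared in 3 pairs, and 125 of 569 ratios over the 5 classes passed 1.5-fold, of which 39 passed 2-fold.

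**Figure D3:**
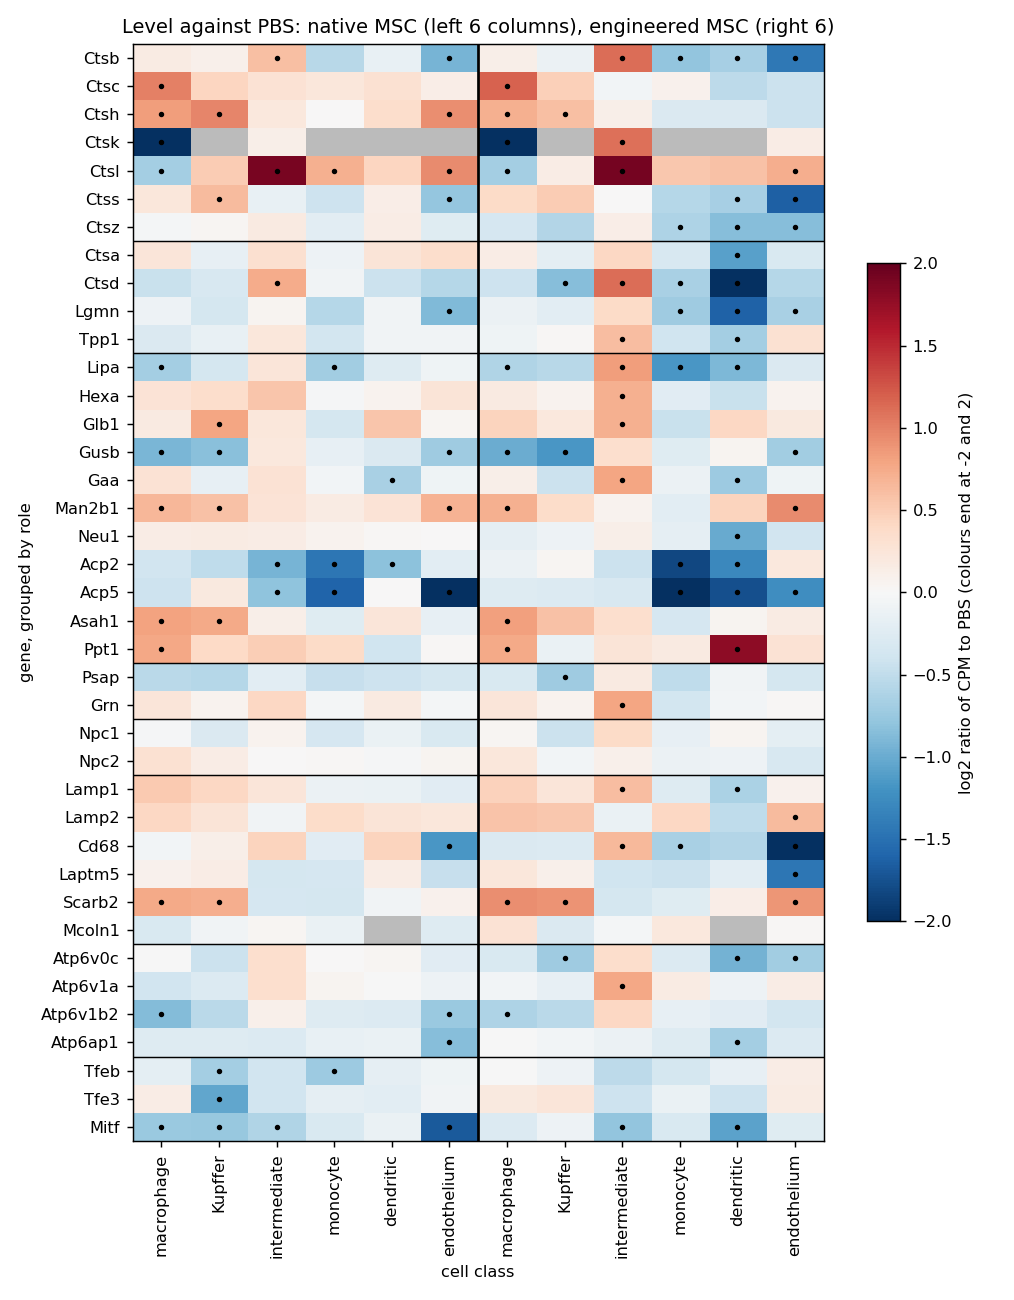
Log2 ratio of CPM to PBS for each gene (rows) in 6 groups of cells, for native MSC (left) and engineered MSC (right). Red is higher and blue lower than PBS, dots mark ratios past 1.5-fold, grey cells had under 50 UMIs in the pair. In engineered MSC, 29 genes are below PBS in the dendritic column and 28 above it in the intermediate column.

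In dendritic-cell-like cells several lysosomal proteases, among them Lgmn, Ctsa, Ctsb and Ctss, were lower with engineered MSC than in the other livers, while Ppt1 was higher. Ctsd was counted at 541 CPM in PBS, 403 in native MSC and 90.8 in engineered MSC, which is 5.96-fold lower (interval 5.15 to 6.91) in engineered MSC than in PBS. Lgmn stood at 533 CPM in PBS, 508 in native MSC and 173 in engineered MSC, and was 3.08-fold lower (interval 2.76 to 3.44). Engineered MSC was the low liver for both, and PBS and native MSC lay close for Lgmn. Ctsa, the carboxypeptidase that also protects Neu1 and Glb1 in a complex, was counted at 185 CPM in PBS, 219.7 in native MSC and 87.2 in engineered MSC and was 2.12-fold lower (interval 1.81 to 2.49). Acp5 lay at 91.3 CPM in PBS, 91.8 in native MSC and 27.0 in engineered MSC and was 3.39-fold lower (interval 2.57 to 4.53).

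Free RNA was gauged from hepatocyte-like cells, with median depths of 1764, 5434 and 2271 UMIs against 6482, 8012 and 7692 in dendritic-cell-like cells. The gauge is rough, because transcripts made by the hepatocyte-like cells and free RNA were not told apart. Hepatocyte-like cells held 178, 63.6 and 46.4 CPM of Lgmn and 30.3, 17.8 and 13.8 CPM of Ctsa, less than dendritic-cell-like cells in each liver. Their Ctsd was 330.2, 125 and 95.1 CPM, below dendritic-cell-like cells in PBS and native MSC and level with them in engineered MSC, where B-cell-like cells held 88.9 CPM. Dendritic-cell-like Ctsd in engineered MSC is therefore not distinguished from background. Acp5, at 40.6, 25.2 and 21.6 CPM in hepatocyte-like cells, was likewise close to the dendritic-cell-like value in engineered MSC and below it in the other livers. For engineered MSC against PBS, all 4 of the other proteases (Ctsa, Ctsd, Lgmn and Tpp1, a tripeptidyl peptidase) were more than 1.5-fold lower. Of all 9011 genes compared, 10.2% were. Ctsd is in that count although its engineered MSC level is not distinguished from background.

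Among the 39 genes in these cells, 1 of 37 genes compared was more than 1.5-fold higher, against 11.4% of all 9011 genes compared, and 16 were more than 1.5-fold lower, against 10.2%. Ctsk and Mcoln1 had too few UMIs to be compared. Of the other genes whose promoter stretch is printed, Ctsd and Ctsa were past 1.5-fold lower and Atp6v1a, a subunit of the pump's head, was present at 102 CPM in PBS, 101 in native MSC and 94.8 in engineered MSC. The median log2 ratio of the 37 was -0.51, against -0.0013 for all genes. Of 6 cysteine cathepsins compared, 3 were past 1.5-fold lower (Ctsb, Ctss and Ctsz). Ctsb stood at 1033 CPM in PBS, 931 in native MSC and 655 in engineered MSC, and Ctss at 1109 CPM in PBS, 1211 in native MSC and 698 in engineered MSC. The proton channel ring subunit Atp6v0c was counted at 597 CPM in PBS, 610.2 in native MSC and 309 in engineered MSC, again with engineered MSC lowest. Mitf lay at 129 CPM in PBS, 117 in native MSC and 61.1 in engineered MSC and Acp2, an acid phosphatase, at 36.2 CPM in PBS, 20.4 in native MSC and 14.8 in engineered MSC. The cofactors and the cholesterol export genes lay closer: Psap was present at 3264 CPM in PBS, 2438 in native MSC and 3104 in engineered MSC. Grn was at 372 CPM in PBS, 419.8 in native MSC and 360 in engineered MSC, and Npc2 at 978 CPM in PBS, 962 in native MSC and 911 in engineered MSC. Lamp1 stood at 372 CPM in PBS, 339 in native MSC and 239.5 in engineered MSC. Cd68 was at 224 CPM in PBS, 305 in native MSC and 150.1 in engineered MSC, and Lipa at 178 CPM in PBS, 148 in native MSC and 95.7 in engineered MSC. Tfeb was counted at 72.2, 64.0 and 64.3 CPM and Tfe3 at 27.7, 23.8 and 20.7 CPM in the same order, with no pair past 1.5-fold apart for Tfeb.

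Against this direction, Ppt1, the enzyme that removes palmitate from proteins, lay at 179 CPM in PBS, 136 in native MSC and 621 in engineered MSC, which is 3.46-fold higher (interval 3.16 to 3.80) in engineered MSC than in PBS. Ctsl was present at 346 CPM in PBS, 469 in native MSC and 518 in engineered MSC, and Man2b1, an acid mannosidase, at 159 CPM in PBS, 192 in native MSC and 216 in engineered MSC; both were highest in engineered MSC without passing 1.5-fold against native MSC. The sum of the 39 genes was 1.25-fold lower (interval 1.23 to 1.27) in engineered MSC than in PBS.

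Between the MSC livers, which share no control, 1 of 37 genes compared was more than 1.5-fold higher, against 16.3% of all 7734 genes compared, and 15 were more than 1.5-fold lower, against 10.4%. The median was -0.50, against 0.05 for all genes. Ctsd was 4.44-fold lower (interval 3.78 to 5.24) in engineered than in native MSC, Lgmn 2.93-fold lower (interval 2.59 to 3.33), Acp5 3.41-fold lower (interval 2.50 to 4.70) and Ctsa 2.52-fold lower (interval 2.10 to 3.03). Ppt1 was 4.56-fold higher (interval 3.93 to 5.32) and Psap 1.27-fold higher (interval 1.22 to 1.33). Fewer genes were past 1.5-fold between native MSC and PBS: 0 of 37 genes compared were more than 1.5-fold higher, against 4.81% of all 8517 genes compared, and 2 were more than 1.5-fold lower, against 9.83%, with a median of -0.02. Psap was 1.34-fold lower (interval 1.29 to 1.39) in native MSC than in PBS, Acp2 1.78-fold lower (interval 1.19 to 2.73) and Ctsl 1.35-fold higher (interval 1.23 to 1.48).

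The dendritic-cell-like class held different kinds of cell in the 3 livers. Marker transcripts of type 1 dendritic cells, which cross-present antigen, summed to 992 CPM in PBS, 663 in native MSC and 2594 in engineered MSC. Cells were therefore also grouped by their highest marker list, a grouping chosen after the data were seen. Type 2 cells, which present to helper T cells, numbered 196, 67 and 76, type 1 cells 69, 18 and 69, migratory cells 70 in PBS and 20 in engineered MSC, and plasmacytoid cells, the interferon producers, 141, 57 and 101. The groups do not make up the whole class. The cluster of conventional dendritic cells held 446, 123 and 177 cells. Its type 1, type 2 and migratory groups covered nearly all of it in engineered MSC, but left out many cells in PBS and native MSC.

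Ctsd was lowest in engineered MSC within each of the 4 groups, with no native MSC value for migratory cells. It stood at 496 CPM in PBS, 361 in native MSC and 121 in engineered MSC for type 2 cells, and at 378 CPM in PBS, 65.8 in native MSC and 45.8 in engineered MSC for type 1 cells. For plasmacytoid cells it was counted at 331 CPM in PBS, 147 in native MSC and 107 in engineered MSC, and for migratory cells at 356 CPM in PBS and 77.8 in engineered MSC. In type 1 and plasmacytoid cells the native MSC value was nearer to that of engineered MSC than to that of PBS. The class levels of 541 CPM in PBS and 403 in native MSC lay above every group value there. Cells outside the groups shown thus held more Ctsd in these livers, and they enter the class ratios. Hepatocyte-like cells held 330.2 CPM of Ctsd in PBS, 125 in native MSC and 95.1 in engineered MSC. Type 1, plasmacytoid and migratory values lay close to or below these, so no change is read from them. Type 2 values stood well clear of the hepatocyte-like ones in PBS and native MSC alone. Lgmn lay at 537 CPM in PBS, 558 in native MSC and 358 in engineered MSC for type 2 cells and at 288 CPM in PBS, 157 in native MSC and 64.4 in engineered MSC for type 1 cells. Ctsa was present at 225 CPM in PBS, 257 in native MSC and 158 in engineered MSC for type 2 cells and at 92.4 CPM in PBS, 55.7 in native MSC and 23.5 in engineered MSC for type 1 cells. Acp5 was best counted in type 2 cells, at 80.1 CPM in PBS, 113 in native MSC and 43.3 in engineered MSC.

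Ppt1 was highest in type 1 cells. Its level there was 795 CPM in PBS, 486 in native MSC and 1587 in engineered MSC, while in type 2 cells it was 53.7 CPM in PBS, 53.8 in native MSC and 75.3 in engineered MSC. In type 1 cells the engineered MSC value was above that of PBS, and in every library the type 1 level was several times the type 2 level. Ctsl was highest in plasmacytoid cells, at 1383 CPM in PBS, 1425 in native MSC and 1549 in engineered MSC, against 109.7 CPM in PBS, 173 in native MSC and 73.3 in engineered MSC in the cluster of conventional dendritic cells. Ctss differed between kinds of cell, at 1372 CPM in PBS, 1368 in native MSC and 1259.9 in engineered MSC for type 2 cells, where the livers were close, and at 590.1 CPM in PBS, 673 in native MSC and 343 in engineered MSC for type 1 cells. Mitf stood at 107 CPM in PBS, 148 in native MSC and 128 in engineered MSC for type 2 cells, not lowest in engineered MSC as it was in the whole class.

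Fewer genes had enough UMIs within the groups. In type 2 cells, engineered MSC against PBS, 0 of 35 genes compared were more than 1.5-fold higher, against 9.38% of all genes compared, and 9 more than 1.5-fold lower, against 12.6%, with a median log2 ratio of -0.26. In type 1 cells 1 of 29 genes compared was more than 1.5-fold higher, against 9.92% of all genes compared, and 12 more than 1.5-fold lower, against 13.6% (median -0.28). In migratory cells 2 of 26 genes compared were more than 1.5-fold higher, against 14.2% of all genes compared, and 14 more than 1.5-fold lower, against 21.1% (median -0.60), and in plasmacytoid cells 0 of 31 genes compared were more than 1.5-fold higher, against 6.46% of all genes compared, and 3 more than 1.5-fold lower, against 7.17% (median -0.21).

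**Figure D4:**
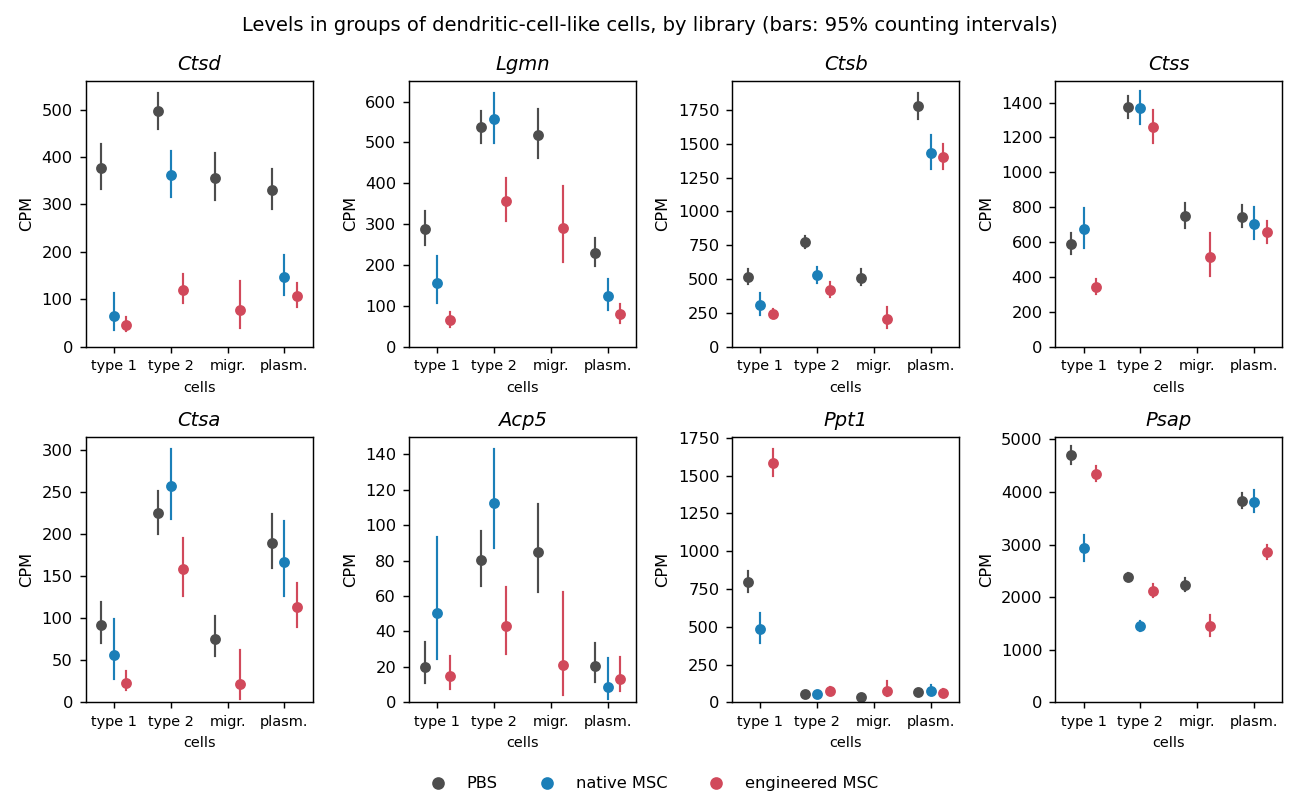
Levels (CPM, y axes from 0) of 8 genes in type 1, type 2, migratory and plasmacytoid dendritic cells, by library; bars are 95% counting intervals and migratory cells of native MSC were too few to show. Ctsd is lowest in engineered MSC in each group, from 45.8 to 121 CPM, where hepatocyte-like cells held 95.1 CPM, and Ppt1 is high in type 1 cells.

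Shares of dendritic-cell-like cells with a Ctsd UMI, after each cell was thinned to 1000 UMIs, were 39.6% in PBS, 30.7 in native MSC and 10.5 in engineered MSC, and unthinned they were 84.3, 72.8 and 43.2%. T-cell-like cells gave 41.2, 25.3 and 22.0% after thinning, more than dendritic-cell-like cells in PBS and engineered MSC, and no change is read from these shares. Thinned shares for Ppt1 were 10.8, 11.2 and 21.5% in dendritic-cell-like cells, against 3.07, 3.02 and 3.84% in T-cell-like cells. Other transcripts also differed between the livers in this class. Lipid-associated macrophage genes summed to 2746 CPM in PBS, 2774 in native MSC and 1225 in engineered MSC, and hepatocyte transcripts to 372, 1106 and 4695 CPM. Dissociation stress genes summed to 6259, 5217 and 4130.2 CPM. Their part in the result was not tested.

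In macrophage-like cells the sum of the 39 genes was nearly level, and single genes differed in both directions. Engineered MSC was 1.03-fold lower (interval 1.02 to 1.03) than PBS for the sum, and native MSC 1.05-fold lower (interval 1.04 to 1.05). Ctsc, the dipeptidyl peptidase that activates granule proteases, was counted at 657 CPM in PBS, 1316 in native MSC and 1490.1 in engineered MSC, which is 2.27-fold higher (interval 2.19 to 2.35) in engineered MSC and 2.00-fold higher (interval 1.94 to 2.07) in native MSC than in PBS. Ctsh, an aminopeptidase, lay at 536 CPM in PBS, 962 in native MSC and 875 in engineered MSC. Asah1, the acid ceramidase, was present at 226 CPM in PBS, 396 in native MSC and 397 in engineered MSC. Scarb2, which carries glucocerebrosidase to the lysosome, stood at 108 CPM in PBS, 183 in native MSC and 204 in engineered MSC. PBS was the low liver for these 4 genes, and the MSC livers lay close together.

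Other genes were highest in PBS. Gusb, a beta-glucuronidase, was counted at 282 CPM in PBS, 149 in native MSC and 141 in engineered MSC and was 2.00-fold lower (interval 1.80 to 2.23) in engineered MSC than in PBS. Ctsl lay at 1613 CPM in PBS, 1012 in native MSC and 1005 in engineered MSC and Lipa at 912 CPM in PBS, 569 in native MSC and 600.1 in engineered MSC. Ctsk was present at 22.7 CPM in PBS, 2.40 in native MSC and 5.65 in engineered MSC. Atp6v1b2, a subunit of the ATP-splitting head of the proton pump, stood at 512 CPM in PBS, 280.5 in native MSC and 333 in engineered MSC, and Mitf at 438 CPM in PBS, 262 in native MSC and 363 in engineered MSC. The 2 most abundant proteases did not pass 1.5-fold: Ctsb was found at 7158 CPM in PBS, 8054 in native MSC and 7725 in engineered MSC, and Ctsd at 6880.3 CPM in PBS, 5052 in native MSC and 5150.4 in engineered MSC. Psap lay at 8151 CPM in PBS, 5610.2 in native MSC and 6603 in engineered MSC.

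By count, engineered MSC against PBS, 6 of 39 genes compared were more than 1.5-fold higher, against 18.9% of all 11266 genes compared, and 5 were more than 1.5-fold lower, against 16.2%. The median log2 ratio was 0.03, against 0.05 for all genes. In native MSC relative to PBS, 6 of 39 genes compared were more than 1.5-fold higher, against 15% of all 11230 genes compared, and 6 were more than 1.5-fold lower, against 17.6%, with a median of -0.01 against -0.01. Each of these shares is near that of all genes. Between the MSC livers none of 37 genes compared was past 1.5-fold in either direction, against 8.67% of all genes higher and 4.43% lower. Mitf was 1.38-fold higher (interval 1.26 to 1.52) in engineered than in native MSC, and Atp6v0c 1.23-fold lower (interval 1.17 to 1.29).

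The clusters of the class differed from each other. Within the cluster led by Cbr2 and Cd163, which had 37 cells in PBS, Gusb was present at 129 CPM in PBS, 140.3 in native MSC and 126 in engineered MSC, and Lipa at 530 CPM in PBS, 544 in native MSC and 546 in engineered MSC. In that cluster the 3 livers were level for both genes. In the cluster led by Atp6v0d2 and Lpl, Gusb stood at 284 CPM in PBS and 277 in native MSC, with 16 cells in native MSC, and Lipa at 916 CPM in PBS and 942 in native MSC. Ctsc was counted at 1269 CPM in PBS, 1355 in native MSC and 1613 in engineered MSC for the first cluster and at 649.9 CPM in PBS and 722 in native MSC for the second. Ctsl had the opposite order within a cluster: in the cluster led by Cbr2 and Cd163 it lay at 422 CPM in PBS, 989.5 in native MSC and 819 in engineered MSC, with PBS lowest, and in the other cluster at 1626 CPM in PBS and 1344 in native MSC. With at least 500 genes required per cell, the log2 ratio of engineered MSC to PBS was 0.67 for Ctsl, 0.97 for Ctsk and -0.02 for Ctsc, each of opposite sign.

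Ctsd was present at 3019.7 CPM in PBS, 4886 in native MSC and 4594 in engineered MSC in the cluster led by Cbr2 and Cd163, where PBS was also low, and at 6923 CPM in PBS and 7529 in native MSC in the other. The sum of the 39 genes there was 32917 CPM in PBS, 41351 in native MSC and 40901 in engineered MSC for the cluster led by Cbr2 and Cd163, and 43893 CPM in PBS and 47393 in native MSC for the cluster led by Atp6v0d2 and Lpl. In the former, engineered MSC against PBS, 10 of 37 genes compared were more than 1.5-fold higher, against 18.3% of all genes compared, and 1 more than 1.5-fold lower, against 13.3%, and the median log2 ratio was 0.31. Lipid-associated macrophage genes summed to 21392 CPM in PBS, 11219 in native MSC and 10279 in engineered MSC in the class, and monocyte genes to 246, 1838 and 1245 CPM. Their part in the result was not tested.

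**Figure D5:**
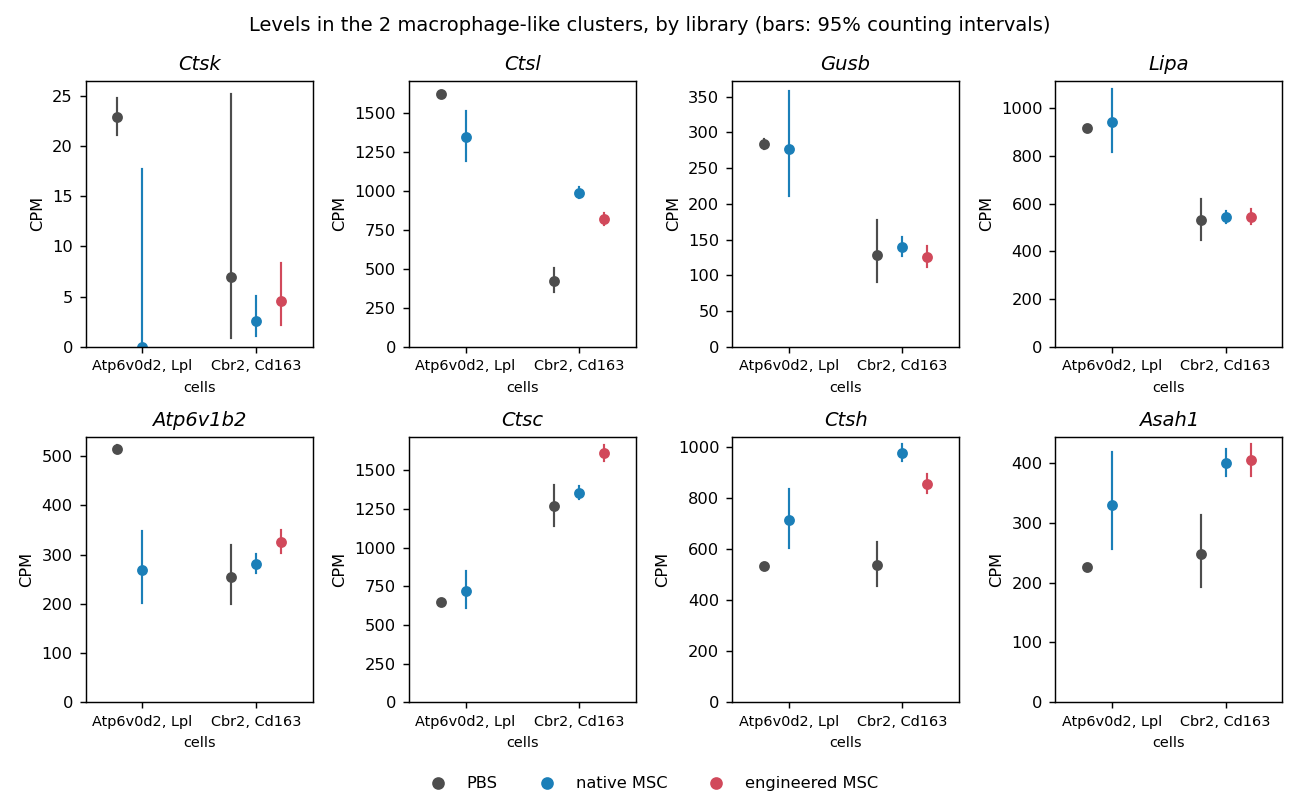
Levels (CPM, y axes from 0) of 8 genes in the macrophage-like clusters led by Atp6v0d2 and Lpl and by Cbr2 and Cd163, by library; bars are 95% counting intervals, and the first cluster had too few cells in engineered MSC to show. Gusb and Lipa differ between clusters more than between libraries within a cluster.

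Of the remaining genes followed in every class, Ctss stood at 2797 CPM in PBS, 3282 in native MSC and 3659.8 in engineered MSC in macrophage-like cells, and Lgmn at 2450.2 CPM in PBS, 2275 in native MSC and 2262 in engineered MSC. Lamp1 was counted at 1238 CPM in PBS, 1772 in native MSC and 1702 in engineered MSC, with PBS lowest, and Grn at 1105 CPM in PBS, 1311 in native MSC and 1301 in engineered MSC. Cd68, Npc2, Acp5, Tfeb and Tfe3 did not pass 1.5-fold in any pair of livers.

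Kupffer-cell-like cells, from a single cluster with 38 cells in native MSC, had lower Psap and Ctsd with engineered MSC and higher Scarb2 and Ctsh in both MSC livers. Ctsd lay at 5852 CPM in PBS, 4697 in native MSC and 3238 in engineered MSC and was 1.81-fold lower (interval 1.75 to 1.86) in engineered MSC than in PBS. Psap was present at 4894 CPM in PBS, 3310.4 in native MSC and 2994 in engineered MSC and was 1.63-fold lower (interval 1.58 to 1.69). Gusb stood at 272 CPM in PBS, 152 in native MSC and 121 in engineered MSC and was 2.25-fold lower (interval 1.92 to 2.64). PBS was the high liver for these 3 genes. Scarb2 was counted at 176 CPM in PBS, 293 in native MSC and 329 in engineered MSC and Ctsh at 467 CPM in PBS, 922 in native MSC and 709 in engineered MSC, with PBS low. Ctss lay at 1393 CPM in PBS, 2152 in native MSC and 1972 in engineered MSC, and Asah1 at 245 CPM in PBS, 413 in native MSC and 367 in engineered MSC.

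For engineered MSC against PBS in these cells, 2 of 38 genes compared were more than 1.5-fold higher, against 13.8% of all 8910 genes compared, and 4 were more than 1.5-fold lower, against 15.4%, with a median log2 ratio of -0.10 against 0.0035 for all genes. For native MSC against PBS, 6 of 38 genes compared were more than 1.5-fold higher, against 14.9% of all 8289 genes compared, and 4 were more than 1.5-fold lower, against 27.9%, with a median of 0.05 against -0.12. The 3 transcription factors were all past 1.5-fold lower in native MSC than in PBS: Mitf was present at 481 CPM in PBS, 285 in native MSC and 448 in engineered MSC. Tfeb was at 58.0 CPM in PBS, 36.1 in native MSC and 54.0 in engineered MSC, and Tfe3 at 57.8 CPM in PBS, 28.1 in native MSC and 68.5 in engineered MSC. The native MSC values of Tfeb and Tfe3 rest on 9 and 7 UMIs. Between the MSC livers, 2 of 37 genes compared were more than 1.5-fold higher, against 21.5% of all 5289 genes compared, and 1 was more than 1.5-fold lower, against 9.36%. Mitf was 1.57-fold higher (interval 1.23 to 2.04) in engineered than in native MSC, and Ctsd 1.45-fold lower (interval 1.36 to 1.55). The median log2 ratio between the MSC livers, -0.17, became 0.23 when cells were classed one by one.

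Ctsb stood at 6393 CPM in PBS, 6873 in native MSC and 5900.3 in engineered MSC in Kupffer-cell-like cells and Ctsl at 561 CPM in PBS, 802 in native MSC and 622 in engineered MSC. Lgmn, highest of all classes here, was counted at 3694 CPM in PBS, 2909.6 in native MSC and 3206 in engineered MSC. Atp6v0c lay at 1139 CPM in PBS, 849.6 in native MSC and 699 in engineered MSC, and Lipa at 863 CPM in PBS, 677 in native MSC and 585 in engineered MSC. Lamp1, Cd68, Grn, Npc2 and Acp5 lay within 1.5-fold of PBS in both MSC livers.

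In monocyte-like cells as a class more genes were lower than higher with engineered MSC, but not within the cluster led by Ace and Adgre4. Acp2 stood at 60.1 CPM in PBS, 22.2 in native MSC and 17.1 in engineered MSC and was 3.52-fold lower (interval 2.30 to 5.68) in engineered MSC than in PBS. Lipa was counted at 266 CPM in PBS, 164 in native MSC and 119 in engineered MSC, and Ctsb at 1768 CPM in PBS, 1209.8 in native MSC and 1023 in engineered MSC. Acp5 was present at 109 CPM in PBS, 35.9 in native MSC and 22.5 in engineered MSC and was 4.84-fold lower (interval 3.34 to 7.27) in the same pair. PBS was highest for these 4 genes. Hepatocyte-like cells of the same livers held 40.6, 25.2 and 21.6 CPM of Acp5, so the monocyte-like value stood well clear of them in PBS alone. Ctsl went the other way, at 377 CPM in PBS, 615 in native MSC and 546 in engineered MSC, and Lamp2 lay at 537 CPM in PBS, 690 in native MSC and 713 in engineered MSC.

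For engineered MSC against PBS, 0 of 38 genes compared were more than 1.5-fold higher, against 6.37% of all 8989 genes compared, and 8 were more than 1.5-fold lower, against 13.6%. The median log2 ratio was -0.28, against -0.10 for all genes. In native MSC relative to PBS, 1 of 38 genes compared was more than 1.5-fold higher, against 5.4% of all 10416 genes compared, and 4 were more than 1.5-fold lower, against 14.6%, with a median of -0.17, against -0.18. Between the MSC livers, 0 of 38 genes compared were more than 1.5-fold higher, against 11.9% of all 9772 genes compared, and 1 was more than 1.5-fold lower, against 6.55%. The gene past it was Acp5, at 35.9 CPM in native MSC and 22.5 CPM (29 UMIs) in engineered MSC, with an interval of 1.10 to 2.41-fold lower. Neither value stood well clear of hepatocyte-like cells (25.2 and 21.6 CPM), so no change is read from it. Ctsd, at 1199 CPM in PBS, 1142 in native MSC and 766 in engineered MSC, was 1.49-fold lower in engineered than in native MSC (interval 1.40 to 1.59). Ctsk was too rare to be compared. Lgmn was present at 978 CPM in PBS, 656 in native MSC and 601 in engineered MSC. Ctss was at 2169.5 CPM in PBS, 1636 in native MSC and 1458 in engineered MSC, and Psap at 4347 CPM in PBS, 3163 in native MSC and 3066 in engineered MSC. Tfeb stood at 81.8 CPM in PBS, 49.5 in native MSC and 64.4 in engineered MSC. Cd68 was at 372 CPM in PBS, 318 in native MSC and 236 in engineered MSC, and Grn at 442 CPM in PBS, 429 in native MSC and 344 in engineered MSC.

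The monocyte-like clusters also differed from each other. Within the cluster led by Vcan and Chil3, Acp5 was counted at 34.4 CPM in PBS, 27.9 in native MSC and 15.7 in engineered MSC. Within the cluster led by Ace and Adgre4 it lay at 150 CPM in PBS, 84.1 in native MSC and 70.2 in engineered MSC, so that the latter cluster was higher in every liver. The values of the former lay close to or below those of hepatocyte-like cells (40.6, 25.2 and 21.6 CPM), so no change is read from them. Lgmn lay at 523 CPM in PBS, 526 in native MSC and 653 in engineered MSC in the former cluster, where PBS was not highest. The sum of the 39 genes was 18217 CPM in PBS, 17412 in native MSC and 16406 in engineered MSC in the cluster led by Vcan and Chil3 and 23078, 24506 and 24958 CPM in the other. Within the former, engineered MSC against PBS, 1 of 37 genes compared was more than 1.5-fold higher, against 6.12% of all genes compared, and 3 more than 1.5-fold lower, against 16.7%. Its median log2 ratio was -0.22, against -0.15 for all genes. In the cluster led by Ace and Adgre4, with 19 cells in engineered MSC, 20 genes were higher and 17 lower than in PBS. The median there was 0.05, against -0.18 for all genes. For native MSC against PBS in that cluster 22 genes were higher and 16 lower, with a median of 0.06 against -0.11. With the intermediate cluster counted as monocytes, a choice made after the data were seen, the median log2 ratio of engineered MSC to PBS became 0.14, and that of native MSC to PBS 0.02, both of opposite sign. The latter was also 0.01 with median-of-ratios size factors in place of totals. Hepatocyte transcripts in monocyte-like cells summed to 570 CPM in PBS, 1358 in native MSC and 6049 in engineered MSC, and their part in the result was not tested.

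The intermediate cluster was the group in which most genes were higher with engineered MSC. Ctsl was present at 518 CPM in PBS, 1940 in native MSC and 1942 in engineered MSC, which is 3.75-fold higher (interval 3.61 to 3.90) in engineered and 3.75-fold higher (interval 3.63 to 3.87) in native MSC than in PBS. Ctsd stood at 2189 CPM in PBS, 3664 in native MSC and 4773 in engineered MSC, and Ctsb at 2532 CPM in PBS, 3848 in native MSC and 5488 in engineered MSC. For Ctsl the MSC livers were level, and for Ctsd and Ctsb engineered MSC was highest and PBS lowest. Lipa was counted at 356 CPM in PBS, 421 in native MSC and 636 in engineered MSC. Psap was at 4559 CPM in PBS, 3936 in native MSC and 5159.6 in engineered MSC, and Grn at 603 CPM in PBS, 801 in native MSC and 1042 in engineered MSC. Lamp1 lay at 945 CPM in PBS, 1119 in native MSC and 1444 in engineered MSC, and Cd68 at 461 CPM in PBS, 629 in native MSC and 722 in engineered MSC. Mitf was the exception past 1.5-fold, at 427 CPM in PBS, 281 in native MSC and 246 in engineered MSC, lowest in engineered MSC. Lgmn was present at 1657 CPM in PBS, 1728 in native MSC and 2159.5 in engineered MSC. Ctss was at 2074 CPM in PBS, 1864 in native MSC and 2095 in engineered MSC, and Npc2 at 1252 CPM in PBS, 1259 in native MSC and 1342 in engineered MSC, all within 1.5-fold. Acp5 stood at 175 CPM in PBS, 100.2 in native MSC and 139.7 in engineered MSC, Ctsk at 5.63 CPM in PBS, 6.11 in native MSC and 12.0 in engineered MSC, Tfeb at 55.2 CPM in PBS, 42.2 in native MSC and 38.3 in engineered MSC and Tfe3 at 44.6 CPM in PBS, 34.3 in native MSC and 33.5 in engineered MSC.

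For engineered MSC against PBS in this cluster, 13 of 39 genes compared were more than 1.5-fold higher, against 12.8% of all 9476 genes compared, and 1 was more than 1.5-fold lower, against 18.6%, and the median log2 ratio was 0.33 against -0.09 for all genes. The sum was 1.41-fold higher (interval 1.40 to 1.42). For native MSC against PBS, 3 of 39 genes compared were more than 1.5-fold higher, against 8.84% of all 10635 genes compared, and 3 were more than 1.5-fold lower, against 13.9%, with a median of 0.18 against -0.13. Between the MSC livers, 2 of 39 genes compared were more than 1.5-fold higher, against 9.55% of all 10164 genes compared, and 0 were more than 1.5-fold lower, against 4.89%. Lipid-associated macrophage genes in this cluster summed to 6421 CPM in PBS, 21472 in native MSC and 19746 in engineered MSC, and monocyte genes to 6864, 5958 and 2894 CPM. The former were lowest and the latter highest in PBS. Their part in the result was not tested.

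As a class, endothelium-like cells had more Ctsl, Lamp2, Scarb2 and Man2b1 and less Ctsb and Lgmn with engineered MSC than in PBS. The cluster led by Wnt2 and Ehd3 held 1576 of these cells in engineered MSC and 0 in PBS, so the class sets different clusters side by side. Ctsl was counted at 652 CPM in PBS, 1249 in native MSC and 1074 in engineered MSC, with PBS lowest. Scarb2 lay at 143 CPM in PBS, 152 in native MSC and 264 in engineered MSC and was 1.85-fold higher (interval 1.73 to 1.98) in engineered MSC than in PBS. Man2b1 was present at 59.2 CPM in PBS, 95.5 in native MSC and 114 in engineered MSC and was 1.93-fold higher (interval 1.74 to 2.15). Lamp2, the membrane protein with its highest class here, stood at 653 CPM in PBS, 761 in native MSC and 1011 in engineered MSC. Ctsb was counted at 2141 CPM in PBS, 1120.2 in native MSC and 794 in engineered MSC and was 2.70-fold lower (interval 2.63 to 2.76), and Lgmn lay at 1165 CPM in PBS, 628 in native MSC and 743 in engineered MSC. PBS was highest for both.

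For engineered MSC against PBS, 4 of 39 genes compared were more than 1.5-fold higher, against 17.9% of all 11837 genes compared, and 9 were more than 1.5-fold lower, against 18.3%, with a median log2 ratio of -0.24 against -0.01 for all genes. In native MSC relative to PBS, 3 of 38 genes compared were more than 1.5-fold higher, against 12.1% of all 10225 genes compared, and 9 were more than 1.5-fold lower, against 14.7%, with a median of -0.13 against -0.07. Between the MSC livers, 3 of 39 genes compared were more than 1.5-fold higher, against 16.3% of all 11162 genes compared, and 6 were more than 1.5-fold lower, against 14.7%. Cd68, Ctss and Laptm5, a membrane protein of blood cells, were among those lower in engineered MSC. Cd68 was present at 36.3 CPM in PBS, 16.3 in native MSC and 7.27 in engineered MSC. Ctss was at 128 CPM in PBS, 75.0 in native MSC and 41.2 in engineered MSC, and Laptm5 at 51.4 CPM in PBS, 37.5 in native MSC and 18.8 in engineered MSC. Hepatocyte-like cells, a class of another lineage, held 39.2, 19.3 and 7.78 CPM of Cd68, 149, 64.2 and 43.4 CPM of Ctss and 41.3, 24.7 and 15.4 CPM of Laptm5. The endothelial values lay close to these, so no endothelial expression or change is read from them. Acp5 stood at 16.8 CPM in PBS, 0.708 in native MSC and 7.11 in engineered MSC, with 1 UMI in native MSC, all below hepatocyte-like levels, and no change is read from it. Mitf was counted at 31.9 CPM in PBS, 9.91 in native MSC and 27.0 in engineered MSC. Its native MSC value rests on 14 UMIs. Hepatocyte-like cells held 22.7, 10.2 and 6.60 CPM of Mitf in that order, so the native MSC value is not distinguished from background.

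Within the endothelial cluster led by Inhbb and Esm1, Ctsb lay at 2178 CPM in PBS, 1229 in native MSC and 1151 in engineered MSC. Lgmn was at 1188 CPM in PBS, 712 in native MSC and 743 in engineered MSC, and Ctsl at 660.3 CPM in PBS, 1429 in native MSC and 1142 in engineered MSC. Scarb2 was present at 144 CPM in PBS, 154 in native MSC and 155 in engineered MSC. It was thus level across the livers in this cluster, unlike in the whole class. Lamp2 and Man2b1 are not given by cluster. Ctsh stood at 37.1 CPM in PBS, 70.8 in native MSC and 27.4 in engineered MSC in the class. In the vascular cluster it was counted at 129.8 CPM in PBS, 251 in native MSC and 113 in engineered MSC. In the cluster led by Inhbb and Esm1 it lay at 34.1 CPM in PBS, 25.5 in native MSC and 23.4 in engineered MSC. Hepatocyte-like cells held 88.1, 131 and 86.0 CPM of Ctsh in that order. Only the vascular values stood above these, so no change is read from the class or from the other cluster. Vascular cells made up 3.65% of the class in PBS, 27.3% in native MSC and 8.33% in engineered MSC. The sum of the 39 genes was 9979 CPM in PBS, 8771 in native MSC and 8009 in engineered MSC in the cluster led by Inhbb and Esm1 and 6279, 5929 and 5099 CPM in the vascular cluster. Hepatocyte transcripts summed to 368 CPM in PBS, 897 in native MSC and 4694 in engineered MSC in the class, and their part in the result was not tested. Psap lay at 976 CPM in PBS, 761 in native MSC and 761 in engineered MSC. Lamp1 was at 614 CPM in PBS, 522 in native MSC and 651 in engineered MSC, and Ctsd at 731 CPM in PBS, 490.4 in native MSC and 494 in engineered MSC.

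A further 110 lysosome and autophagy genes were followed in 8 lists. In dendritic-cell-like cells, engineered MSC against PBS, 11.4% of all genes compared were past 1.5-fold higher and 10.2% lower. Counts past 1.5-fold were 5 of 25 compared higher and 3 lower among other hydrolases and cofactors, 0 of 13 compared higher and 1 lower among other proton pump subunits, 1 of 12 compared higher and 1 lower among enzyme sorting genes and 0 of 16 compared higher and 4 lower among other membrane proteins. They were 0 of 13 compared higher and 1 lower among nutrient sensing genes, 0 of 12 compared higher and 1 lower among autophagy genes, 1 of 2 compared higher and 0 lower among other cathepsins and 1 of 2 compared higher and 1 lower among cystatins. The hydrolase list did not share the direction of the proteases, with a median log2 ratio of 0.06. The cystatins, inhibitors of cysteine cathepsins, parted: Cst3, a secreted one, was present at 4512 CPM in PBS, 2991 in native MSC and 7359 in engineered MSC, and Cstb, the inhibitor in the cytoplasm, at 325 CPM in PBS, 245 in native MSC and 113 in engineered MSC. Cd63, a membrane protein of late endosomes, stood at 222 CPM in PBS, 51.0 in native MSC and 66.1 in engineered MSC, and Ifi30, which reduces disulfide bonds of antigens, at 1051 CPM in PBS, 1044 in native MSC and 455 in engineered MSC.

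In macrophage-like cells, engineered MSC against PBS, where 18.9% of all genes were past 1.5-fold higher and 16.2% lower, the counts were 5 of 14 compared higher and 0 lower among autophagy genes, with a median log2 ratio of 0.41, and 0 of 14 compared higher and 2 lower among other proton pump subunits. Atp6v0d2, the pump subunit that leads the main cluster of PBS, was counted at 261 CPM in PBS, 18.3 in native MSC and 52.0 in engineered MSC. Cd63 lay at 1672 CPM in PBS, 645 in native MSC and 672 in engineered MSC and Cstb at 841 CPM in PBS, 539.7 in native MSC and 472 in engineered MSC, with PBS highest for each. In Kupffer-cell-like cells PBS was also highest for Cd63, at 649 CPM in PBS, 180.3 in native MSC and 122 in engineered MSC. Among autophagy genes in endothelium-like cells, engineered MSC against PBS, 4 of 14 compared were past 1.5-fold higher, against 17.9% of all genes, and 0 lower, against 18.3%. Ctso and Ctsf, papain-like cathepsins, stood in macrophage-like cells at 22.3 CPM in PBS, 34.5 in native MSC and 44.4 in engineered MSC and at 4.19 CPM in PBS, 6.91 in native MSC and 10.1 in engineered MSC, with PBS lowest.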

How the data were processed

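Liver cells were dissociated at 37 °C and sequenced as 10x 3′ v3.1 libraries, per the labels' protocols. The deposited files hold raw UMI counts per gene and barcode, which the authors made with Cell Ranger 7.1.0 on GRCm39, per the submitters' processing notes. The 3 matrices held 10739, 11479 and 11028 barcodes and 82247448, 84950721 and 62564254 UMIs (PBS, native MSC, engineered MSC). Each is 1 mouse, so a share or ratio carries counting error alone, and PCR and cell sampling add to it.

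Barcodes with under 200 genes, under 500 UMIs or over 20% mitochondrial UMIs were dropped, and doublets were removed per library with Scrublet (0.8% per 1000 barcodes expected; 923, 1054 and 973 removed). Cells were clustered with scanpy 1.11.5 and igraph 0.11.9 on 2000 variable genes without lysosome genes, with 30 components, 15 neighbours and Leiden resolution 1, with no batch integration. A cluster was called X-like where a marker list led by set margins, a rule chosen after the clusters' marker scores were seen. Class names are thus rebuilt, not the authors'. UMIs were summed per class and library and given as CPM. Exact Poisson intervals were given for levels and exact binomial intervals for ratios (95%; Python 3.11.15, scipy 1.17.1, numpy 2.4.6). The ratio intervals alone were tested on simulated data. These data were drawn with Poisson counting error only, so the test cannot tell how the intervals hold under variation between cells. A gene was compared in a pair at 50 or more UMIs and counted past 1.5-fold.

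The 39 genes and all lists were chosen with earlier results of these data known. Named in full were up to 4 genes per direction whose interval bound lay furthest from equality, plus 16 genes given in every class. Promoters came from RefSeq (GRCm38.p6), with 5 genes unmatched. Alternatives covered cell filters, clustering, class rules, scaling, count minimum and fold.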

Additional observations from a re-analysis of the deposited data

Results flagged for a closer look

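Ctsl, Acp5 and Mitf moved past 1.5-fold in opposite directions in different classes under the same comparison, and in none was the difference between classes tested. The log2 ratio of Ctsl for engineered MSC against PBS was 0.72 in endothelium-like and -0.68 in macrophage-like cells. For native MSC against PBS it was 0.94 in endothelium-like, 0.71 in monocyte-like and -0.67 in macrophage-like cells. Within the macrophage-like cluster led by Cbr2 and Cd163, Ctsl was higher, not lower, in both MSC livers than in PBS.

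Acp5 had a log2 ratio of 3.33 in endothelium-like and -1.77 in dendritic-cell-like cells for engineered against native MSC. The endothelium-like value rests on 1 UMI in native MSC, and the dendritic-cell-like value of engineered MSC (27.0 CPM) lay close to the 21.6 CPM of hepatocyte-like cells there. Mitf had a log2 ratio of 1.45 in endothelium-like and -0.94 in dendritic-cell-like cells for the same pair. The endothelium-like value of native MSC rests on 14 UMIs, at 9.91 CPM against 10.2 CPM in hepatocyte-like cells there.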

How the results depend on the processing

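No paired analysis was possible because each group had 1 library. The interval of a median was taken from the ordered log2 ratios of the genes compared. It reflects the spread between genes, not counting error or variation between mice. A median that stayed within it is therefore not shown to be precise. Of 195 medians of the 39 genes recomputed under alternatives, 179 stayed within the interval of the reported median. A further 11 moved beyond it and 5 changed sign where that interval had not reached 0. Log2 ratios of single genes stayed within their counting interval in 2618 cases and moved beyond it in 1009, and those whose whole interval had been past 1.5-fold changed sign in 24. The sum moved beyond its counting interval in 120 of 195. The causes were not tested.

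In the order engineered MSC against PBS, native MSC against PBS and engineered against native MSC, medians moved as follows. In monocyte-like cells size factors gave -0.18 for the first pair and 0.009 (sign changed) for the second, and classing cell by cell gave -0.063 for the third. With the intermediate cluster added they were 0.14, 0.018 and 0.17, all of opposite sign. In macrophage-like cells the cluster led by Cbr2 and Cd163 alone gave 0.31 and 0.27 for the first and second pair, and at least 500 genes per cell gave 0.24 and the added intermediate cluster 0.22 for the third. In Kupffer-cell-like cells the added mixed cluster gave -0.21 for the first and -0.39 for the third pair, size factors -0.29 for the third, and classing cell by cell -0.30 for the second and 0.23 (sign changed) for the third. Conventional dendritic cells alone gave -0.68 for the third pair. Ratios past 1.5-fold numbered 125, and 39 passed 2-fold.

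Single genes changed sign as log2 ratios. In monocyte-like cells, engineered MSC against PBS, the added intermediate cluster gave Ctsb 0.93, Lgmn 0.33 and Lipa 0.62, and the cluster led by Vcan and Chil3 alone gave Lgmn 0.32. In macrophage-like cells, engineered MSC against PBS, Ctsl was 0.12 with cell by cell classes, 0.67 with at least 500 genes per cell, 0.19 with the intermediate cluster and 0.96 in the cluster led by Cbr2 and Cd163, and with at least 500 genes Ctsc was -0.017 and Ctsk 0.97. For native MSC against PBS, Ctsl was 0.48 with lysosome genes among the variable genes, 0.34 at Leiden resolution 2, 0.30 cell by cell, 0.40 with doublets kept, 0.19 with at least 500 genes, 0.41 at no more than 10% mitochondrial UMIs, 0.41 with the intermediate cluster and 1.23 in the cluster led by Cbr2 and Cd163, where Atp6v1b2 was 0.14, Gusb 0.12 and Lipa 0.039. Mitf was 0.26 in type 2 dendritic cells, engineered MSC against PBS. Endothelial Ctsh, native MSC against PBS, was -0.46 in sinusoidal endothelium and -0.42 in the cluster led by Inhbb and Esm1. Its class levels lay below those of hepatocyte-like cells in both livers.

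Adding or isolating a cluster or the type 2 cells was chosen after seeing the data. Groups of few cells limit precision, among them the 38 Kupffer-cell-like cells and 18 type 1 dendritic cells of native MSC and its 16 cells of the macrophage-like cluster led by Atp6v0d2 and Lpl.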

Other observations

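In the classes not compared gene by gene, the summed level of the 39 genes was highest in PBS. Neutrophil-like cells held 10674 CPM in PBS, 6424 in native MSC and 5887 in engineered MSC, B-cell-like cells 5560, 4000 and 3644 CPM, and hepatocyte-like cells 3281, 2212 and 1650 CPM in that order. T-cell-like cells had the same order of livers.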
